A study of Mus musculus with 8 samples.

Results

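The genes described here are 7 genes of cholesterol synthesis and its control by the transcription factor SREBP2: Srebf2, Insig1, Hmgcs1, Idi1, Fdft1, Sqle and Lss. They were chosen by name from the 26873 features of the deposited table, and no name occurred more than once. All 7 had enough counts to be tested, among 15942 features that did. Their identifiers in the table are ENSRNOG00000007400 (Srebf2), ENSRNOG00000006859 (Insig1), ENSRNOG00000016552 (Hmgcs1), ENSRNOG00000016690 (Idi1), ENSRNOG00000021314 (Fdft1), ENSRNOG00000009550 (Sqle) and ENSRNOG00000054549 (Lss), which are rat Ensembl identifiers, although the labels name the mouse.

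Messenger RNA was sequenced from bone marrow mesenchymal stem cells (BMSCs), labelled as a wild-type (WT) cell line under osteogenic differentiation, in 8 libraries. On day 3 and on day 7 there was 1 library for each of 4 arms, and every arm received medium with 10% serum in which polycaprolactone (PCL) scaffolds had been soaked for 72 h. The arms are PCL-O, read as the blank by elimination, PCL-S with the S7 peptide, PCL-E with the E7 peptide and PCL-SE with both, at peptide doses not given in the sources used here. Although n = 3 RNA samples are named in the labels, each arm and day has 1 column of counts, and pooling is neither stated nor denied. A cell line named only BMSCs, 1 scaffold extract per arm and 1 library per arm and day limit what the groups can stand for. For tests, PCL-S and PCL-SE were taken as the libraries with S7 and PCL-O and PCL-E as those without it. The main fit had terms for S7, day, their interaction and E7. A p-value thus rests on how far the libraries depart from the fitted terms and not on repeated cultures.

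Libraries held 32950326 to 41754124 counts. All 9 of 9 mesenchymal stromal markers stood above 1 normalised CPM (CPM, counts relative to the library size, scaled between libraries with TMM factors) in every library, whereas haematopoietic markers summed to at most 0.890. On day 7, PCL-S and PCL-SE stood apart from the other 6 libraries in composition. Ribosomal protein genes took 3.73 to 3.76% of their counts, against 1.58 to 2.27% elsewhere, and the 10 most abundant genes took 7.10 to 7.16%, against 10.4 to 13.6%. In bulk RNA, fewer cells of a type and less RNA per cell cannot be told apart.

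Cholesterol is built from acetyl-CoA through mevalonate, isoprenoid units and squalene. SREBP2, the product of Srebf2, is held in the endoplasmic reticulum by the Scap and Insig proteins when sterols are plentiful; when they run low it is cut in the Golgi, and its free part enters the nucleus and switches on the genes of the pathway, Insig1 and Srebf2 among them. Stromal and bone-forming cells use the pathway for membranes and for the lipid anchors of signalling proteins. Hmgcs1 makes HMG-CoA, Idi1 interconverts the isoprenoid building blocks, Fdft1 joins farnesyl units into squalene, Sqle oxidises squalene and Lss closes the epoxide into lanosterol.

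Promoters of 4 of these genes are shown because the genes parted from one another on day 7, as given further on: Srebf2, Hmgcs1 and Idi1 fell between days in cells with S7, and Lss did not pass the test. RefSeq's mouse table (GRCm38.p6) held promoters for 5 of the 7 genes; it had no entry for Fdft1 or Sqle. The table is from the mouse and the identifiers are from the rat, so the letters are those of the mouse gene. Each line gives the 170 bases before the annotated start, from base -170 to base -1, on the plus strand, at chr15:82147099-82147268 (Srebf2), chr13:119690181-119690350 (Hmgcs1), chr13:8885436-8885605 (Idi1) and chr10:76531435-76531604 (Lss). Capitals mark matches, on either strand, to TCACNCCA (a short form of the sterol response element bound by SREBP), CCAAT (bound by NF-Y) and GGGCGG (bound by Sp1), the usual partners of SREBP at its targets.
Srebf2: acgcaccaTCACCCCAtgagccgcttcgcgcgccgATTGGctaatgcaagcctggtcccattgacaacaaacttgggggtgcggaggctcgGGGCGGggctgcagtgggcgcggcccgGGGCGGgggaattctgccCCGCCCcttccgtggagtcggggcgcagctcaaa
Hmgcs1: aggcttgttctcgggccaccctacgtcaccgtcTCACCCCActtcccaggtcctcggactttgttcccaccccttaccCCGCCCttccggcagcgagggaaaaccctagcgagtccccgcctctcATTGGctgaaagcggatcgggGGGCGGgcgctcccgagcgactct
Idi1: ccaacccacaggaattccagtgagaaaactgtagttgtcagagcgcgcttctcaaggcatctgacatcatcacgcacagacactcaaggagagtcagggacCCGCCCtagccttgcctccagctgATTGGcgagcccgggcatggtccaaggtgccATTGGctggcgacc
Lss: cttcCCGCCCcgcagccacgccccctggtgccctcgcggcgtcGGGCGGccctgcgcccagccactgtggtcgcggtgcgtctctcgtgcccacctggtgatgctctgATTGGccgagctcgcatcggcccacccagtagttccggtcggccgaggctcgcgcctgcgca

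The short sterol element lies at bases -162 to -155 of Srebf2 and at bases -137 to -130 of Hmgcs1, where the longer TCACNCCAC, which contains it, also matches. Over the table's full window (250 bases before to 50 after the start), 4.362% of 32851 mouse promoters held TCACNCCA and 1.242% held TCACNCCAC. These letters were not found in the windows of Insig1, Idi1 or Lss. All 5 promoters held CCAAT and GGGCGG, as did 37.41% and 35.66% of all promoters respectively. A match describes letters only, and a missing match covers only these exact letters in this window, not other forms of the element.

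Levels between genes can be compared only per transcript length, for which the deposited FPKM were used. Hmgcs1 had the highest mean level over the 8 libraries, at 44.5 ± 11.6 FPKM (SD, n = 8), followed by Sqle at 40.8 ± 6.30 FPKM, Insig1 at 26.7 ± 5.79 FPKM and Fdft1 at 23.6 ± 2.06 FPKM. Srebf2 stood at 18.9 ± 2.63 FPKM, Idi1 at 15.5 ± 3.47 FPKM and Lss at 14.4 ± 2.56 FPKM. Neighbours in this order lay within the larger of their SDs of each other, except that Sqle stood above Insig1, and Fdft1 above Srebf2, by more than either SD; the SD here includes the differences between arms and days. The genes differed in how far their levels ranged. On the normalised CPM scale, used from here on for levels between libraries, the highest library exceeded the lowest 2.53-fold for Idi1 and 2.51-fold for Hmgcs1, but only 1.31-fold for Fdft1. The fold range was 1.94 for Insig1 and 1.73 for Sqle, and it was 1.64 for Srebf2, with Lss between Srebf2 and Fdft1.

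**Figure D1:**
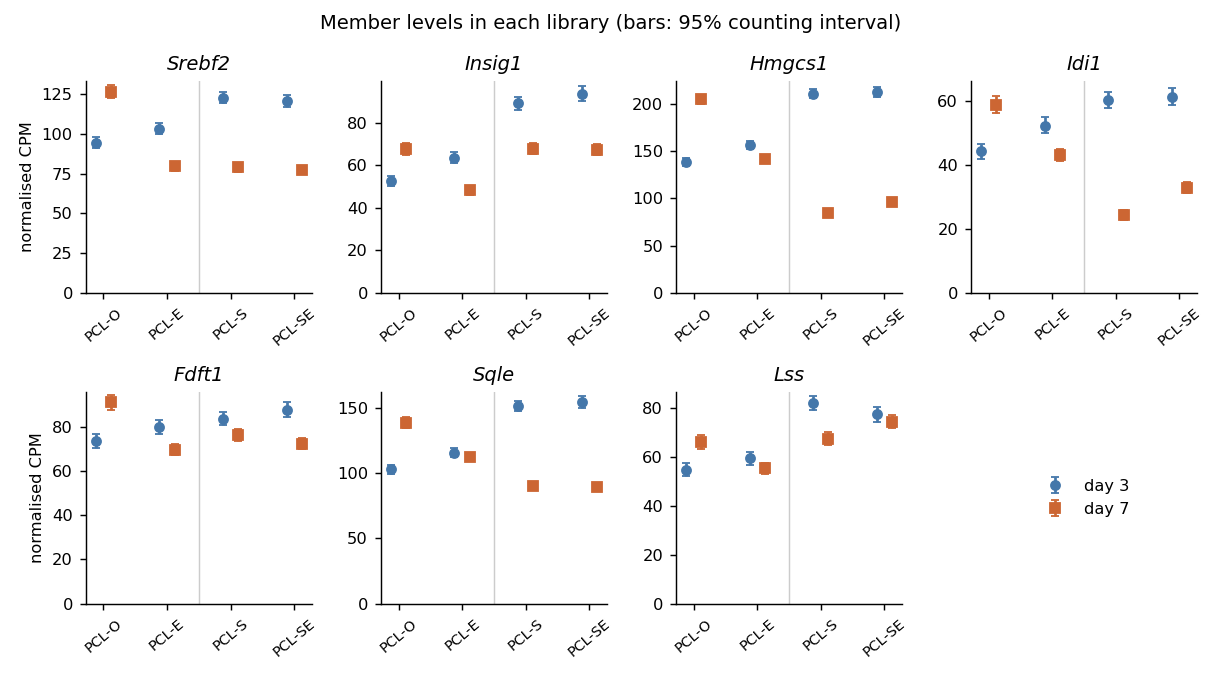
Normalised CPM of each gene (vertical axis, from 0) in each arm, with day 3 as circles and day 7 as squares; bars are 95% Poisson counting intervals of single libraries, and arms with S7 lie right of the grey line. On day 3 all 7 genes stood higher in both arms with S7 than in both without; on day 7 Hmgcs1 ran from 84.5 to 95.7 in the arms with S7 and from 142 to 204 in those without.

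On day 3 every one of the 7 genes stood higher in both libraries with S7 than in both without, and 3 of them rose by the test: Insig1, Sqle and Lss. Over all genes tested, both libraries with S7 lay above both without in 35.2%, 7.1% were called higher and 6.87% lower. The median log2 fold change of the 7 genes was 0.48, against 0.00 over all genes. The 3 called genes act at different steps: Insig1 restrains SREBP2, while Sqle and Lss are consecutive enzymes at the squalene step.

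Insig1 stood at 52.6 normalised CPM in PCL-O and 63.7 in PCL-E on day 3, and at 89.3 in PCL-S and 93.8 in PCL-SE. Its log2 fold change with S7 was 0.65 ± 0.17 (SE), with an adjusted p of 0.0460 by edgeR's quasi-likelihood test with Benjamini-Hochberg adjustment. Both S7 libraries were high and the groups did not overlap. Sqle, the second rate-controlling enzyme of the pathway, stood at 103 and 116 normalised CPM without S7 (PCL-O, PCL-E) and at 151 and 154 with it (PCL-S, PCL-SE). The edgeR log2 fold change of Sqle was 0.48 ± 0.12, with an adjusted p of 0.0390. Lss rose from 54.8 and 59.6 normalised CPM without S7 to 82.2 and 77.6 with it, a log2 fold change of 0.48 ± 0.11 (edgeR adjusted p = 0.0343).

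The other 4 genes did not pass the test on day 3. Hmgcs1 was measured at 139 and 156 normalised CPM in PCL-O and PCL-E and at 210.5 and 212 in PCL-S and PCL-SE, a log2 difference of 0.52 ± 0.17 (edgeR adjusted p = 0.0953; DESeq2 gave 0.0371). For Srebf2 the levels were 94.5 and 103 normalised CPM without S7 and 123 and 120.5 with it, a log2 difference of 0.29 ± 0.18 (edgeR adjusted p = 0.332). Both S7 libraries of the regulator were high and did not overlap with the others, but the difference did not pass. Idi1 gave a log2 difference of 0.33 ± 0.19 (adjusted p = 0.302) and Fdft1 one of 0.16 ± 0.13 (adjusted p = 0.462), both by edgeR. Fdft1 had the narrowest span, from 73.4 in PCL-O to 87.6 normalised CPM in PCL-SE.

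The day 3 calls depended on single libraries. Fewer of all genes were called, too, in every fit that left out a day 3 library, or PCL-S or PCL-SE of day 7. None of the 3 was called when any 1 day 3 library, or PCL-S or PCL-SE of day 7, was left out. The highest adjusted p came without PCL-O day 3: 0.321 for Insig1 (log2 fold change 0.46), 0.308 for Sqle (0.36) and 0.288 for Lss (0.39). Without PCL-E day 3 the log2 fold changes were larger, at 0.87, 0.62 and 0.58, with adjusted p of 0.0778, 0.0880 and 0.111. Without PCL-S or PCL-SE of day 3 the adjusted p of the 3 genes ran from 0.156 to 0.267. Without PCL-S or PCL-SE of day 7 their log2 fold changes were still 0.65, 0.48 and 0.48, with adjusted p from 0.0522 to 0.0877. Without PCL-O or PCL-E of day 7, 5 of the 7 genes were called, Srebf2 and Hmgcs1 in addition, while 12% and 11.8% of all genes were called higher; without PCL-O day 7 their log2 fold changes were 0.30 (adjusted p = 0.0181) and 0.52 (adjusted p = 0.00227).

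On day 7 the genes parted. Hmgcs1, Idi1 and Sqle fell with S7, 0 rose, and the other 4 did not pass the test. Both libraries with S7 lay below both without for 4 genes (Hmgcs1, Idi1, Sqle and Srebf2) and above both for Lss, and the groups overlapped for Insig1 and Fdft1. Over all genes tested, 26.2% were called lower and 24.9% higher, and both S7 libraries lay below both others in 38.4%. The share of genes called was thus far larger on day 7 than on day 3, and 3 of 7 called lower is to be read against it. The median log2 fold change was -0.38 over the 7 genes and -0.03 over all genes.

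Hmgcs1, the enzyme at the entry of the mevalonate pathway, stood on day 7 at 204 normalised CPM in PCL-O and 142 in PCL-E, against 84.5 (PCL-S) and 95.7 (PCL-SE). The edgeR log2 fold change was -0.94 ± 0.17 (adjusted p = 0.00460), the largest fall of the 7 genes. Both S7 libraries were also lower than any day 3 library, whose lowest Hmgcs1 value was 139 in PCL-O. Idi1 stood at 58.9 and 43.1 normalised CPM in PCL-O and PCL-E and at 24.2 and 32.8 with S7, a log2 fold change of -0.84 ± 0.19 (edgeR adjusted p = 0.0110). The value in PCL-S rests on the lowest count of any member, 918, with a Poisson interval of 22.7 to 25.9 normalised CPM (95%, counting error only). Sqle stood at 139 and 112 normalised CPM without S7 and at 90.2 and 89.5 with it, a log2 fold change of -0.48 ± 0.12 (edgeR adjusted p = 0.0137).

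Lss and Insig1 went the other way in sign without passing the test. Lss stood at 66.1 and 55.4 normalised CPM in PCL-O and PCL-E and at 67.4 and 74.5 with S7 (PCL-S, PCL-SE), a log2 difference of 0.23 ± 0.11 (edgeR adjusted p = 0.134). Insig1 stood at 67.7 and 48.3 normalised CPM in PCL-O and PCL-E and at 68.0 and 67.4 with S7 (PCL-S, PCL-SE), so that only PCL-E was low; its log2 difference was 0.23 ± 0.17 (adjusted p = 0.293 by edgeR). For Srebf2 it was PCL-O that stood alone, high at 127 normalised CPM, and PCL-E, PCL-S and PCL-SE lay at 79.6, 78.9 and 77.3. The log2 difference of Srebf2 with S7 was -0.38 ± 0.18 (edgeR adjusted p = 0.119). Fdft1 again moved least, from 69.5 in PCL-E to 91.0 in PCL-O with both S7 libraries between them (log2 difference -0.11 ± 0.13, edgeR adjusted p = 0.505).

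**Figure D2:**
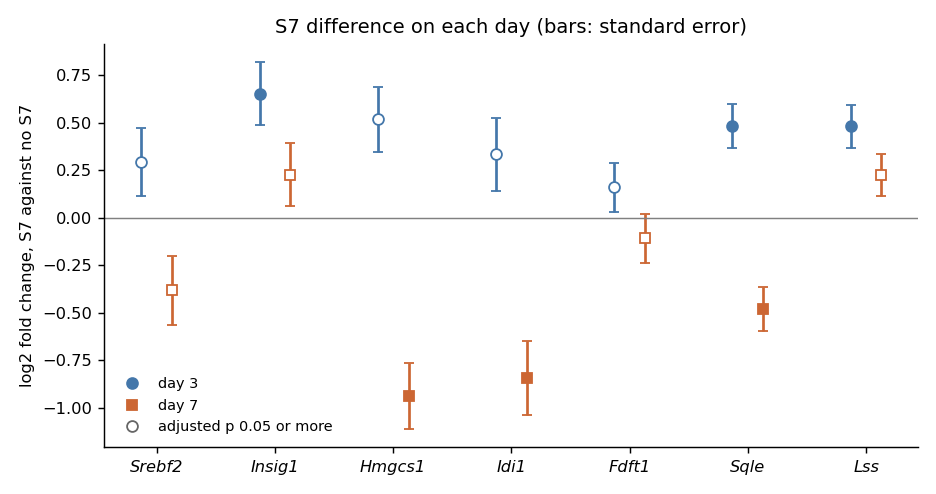
Log2 fold change with S7 against without S7 (vertical axis) for each gene on day 3 (circles) and day 7 (squares), from 2 libraries per side; bars are standard errors and open symbols have an adjusted p of 0.05 or more. All day 3 values are above 0 (0.16 to 0.65); on day 7 they run from -0.94 for Hmgcs1 to 0.23 for Insig1 and Lss.

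The day 7 calls were lost without PCL-S day 7, when Hmgcs1 stood at -0.78 (adjusted p = 0.0548), Idi1 at -0.60 (0.0985) and Sqle at -0.46 (0.0920). Sqle was also lost without PCL-SE day 7 (log2 fold change -0.49, adjusted p = 0.0689). Leaving out PCL-O day 7 moved the values further towards 0: without it, Hmgcs1 was at -0.60, Idi1 at -0.49 and Sqle at -0.29, all still called, and Insig1 (0.54, adjusted p = 0.00660) and Lss (0.39, adjusted p = 0.0187) passed as higher, as did 21% of all genes. Without PCL-E day 7 the falls were larger (Hmgcs1 -1.24, Idi1 -1.17, Sqle -0.66), and Srebf2 (-0.70, adjusted p = 0.000606) and Fdft1 (-0.31, adjusted p = 0.0222) passed as lower, as did 25.5% of all genes.

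Scaling mattered on day 7. When libraries were scaled to their totals instead of by TMM, the median of all genes moved from -0.03 to 0.19 and the share of calls that were higher moved from 48.7 to 65.2%. Hmgcs1 (-0.71, adjusted p = 0.00743) and Idi1 (-0.62, adjusted p = 0.0217) were still called lower under total-count scaling, Sqle was not (-0.25, adjusted p = 0.0839), Insig1 (0.46, adjusted p = 0.0377) and Lss (0.45, adjusted p = 0.00865) were called higher (35.4% of all genes were), and Fdft1 changed sign to 0.12 (not called).

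A ratio of 2 genes within 1 library does not depend on how libraries are scaled, and these ratios, chosen after the values were seen and given with no test, showed the same parting. Hmgcs1 divided by Lss (deposited FPKM) was 3.46 to 4.20 in 6 libraries but 1.73 and 1.77 in the day 7 pair with S7. Idi1 divided by Lss was 1.15 to 1.38 in the 6 and 0.567 and 0.696 in that pair. Both upstream enzymes were thus lower against Lss by a like factor, and Hmgcs1 divided by Idi1 was 2.55 to 3.04 in that pair and 2.60 to 3.06 elsewhere. Sqle divided by Lss was 1.958 to 2.18 against 2.99 to 3.37, and Srebf2 divided by Lss 0.924 to 1.05 against 1.26 to 1.67. Insig1 divided by Srebf2, a target over its own regulator, was higher with S7 on both days. It was 1.77 and 1.80 with S7 on day 7 and 1.51 and 1.57 with S7 on day 3. In the libraries without S7, of either day, it was 1.07 to 1.28. The ratio to Lss did not separate the pair for Fdft1 (1.37 to 1.58 against 1.42 to 1.90) or for Insig1 (1.66 to 1.85 against 1.57 to 2.18).

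**Figure D3:**
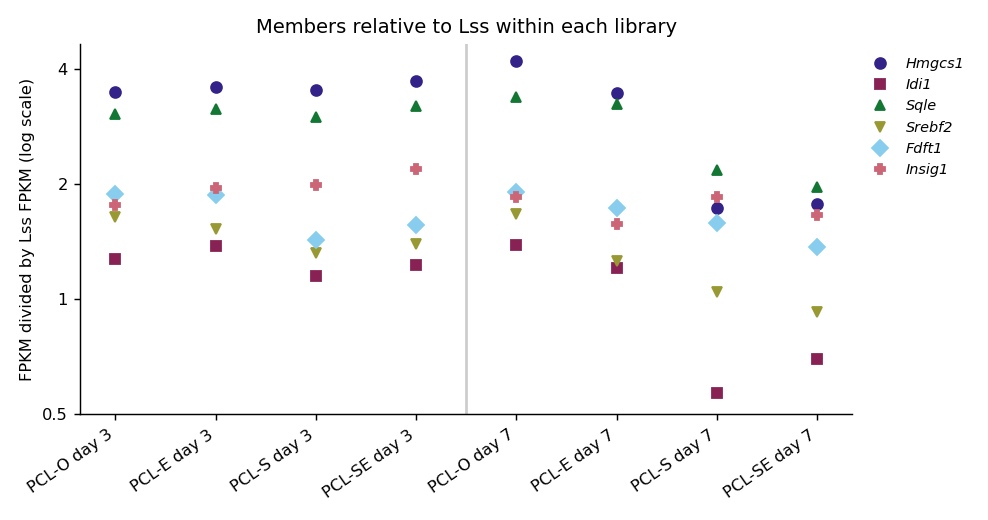
Deposited FPKM of each gene divided by that of Lss in the same library (vertical axis, log scale), by library, with the grey line between day 3 and day 7. On day 7 with S7 (PCL-S, PCL-SE) the Hmgcs1 ratio was 1.73 to 1.77, against 3.46 to 4.20 in the other 6 libraries, and the Idi1 ratio was 0.567 to 0.696 against 1.15 to 1.38.

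Cell type markers also differed with S7 on day 7. The summed stromal list (9 of 9 markers above 1 normalised CPM) was 9164 to 9588 in the 2 libraries with S7 on day 7 and 25885 to 41042 in those without; on day 3 it was 49336 to 53247 with S7 and 33733 to 35095 without. The sum is mostly collagen I and integrin: Col1a1 stood at 4922 and 4561 with S7 on day 7 against 25935 and 15051 without, whereas Cd44 was higher with S7 (440 and 435 against 236 and 284). Osteoblast markers (2 of 7 above 1 normalised CPM in both libraries with S7 on day 7, 4 of 7 in each other group) summed to 1488 to 2449 with S7 and 1036 to 1402 without on day 7, and to 982 to 1018 with and 706 to 750 without on day 3. Bglap and Ibsp were at 0 in both S7 libraries on day 7 but were low everywhere. Bglap was at most 0.159 in any library, and Ibsp stood at 0.191 (PCL-O) and 0.329 (PCL-E) without S7 on day 7. Nearly all of the osteoblast sum is Spp1 (1461 and 2417 with S7 on day 7, 1358 and 1002 without), and Alpl was lower with S7 (0.607 and 1.15 against 13.8 and 8.43). Adipocyte markers (5 of 8 above 1 in the S7 pair on day 7, 3 or 4 elsewhere) summed to 34.1 to 40.8 with S7 on day 7 and 16.2 to 18.5 without, and to 19.5 to 20.2 with and 24.6 to 35.5 without on day 3. Cidec and Adipoq were at or near 0 throughout and did not separate the groups. Cidec was above 0 only in PCL-O day 3 (0.0930) and Adipoq only in PCL-S day 7 (0.0528). Within the adipocyte list, Cebpa and Pparg were higher with S7 on both days and Lpl was lower on both. Cebpa stood at 20.8 and 19.2 with S7 on day 7 against 3.75 and 4.06 without. Lpl stood at 3.19 and 4.06 with S7 on day 7 against 10.8 and 11.4 without. On day 3 Lpl stood at 8.88 and 8.53 with S7 against 30.9 and 17.3 without. Chondrocyte markers (3 of 6 above 1 in the S7 pair on day 7, 5 of 6 elsewhere) summed to 78.4 to 89.4 against 361 to 366 on day 7 and to 193 to 206 against 301 to 555 on day 3. The haematopoietic list (0 of 6 matched genes above 1; Cd3e at 0 in every library) ranged from 0.564 to 0.890, the endothelial list (1 of 4 matched genes above 1; Cdh5 at 0 in every library) from 3.53 to 15.4, and the hepatocyte list (0 of 4; Alb at 0 in every library) was at most 0.251. The part of these markers, and of the ribosomal protein share, in the changes of the cholesterol genes was not tested.

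Between day 3 and day 7, 4 of the 7 genes fell in the libraries with S7 and none passed the test in those without. With S7, every one of them stood lower in both day 7 libraries than in both day 3 libraries, as did 41.8% of all genes, and 4 were called lower: Hmgcs1, Idi1, Sqle and Srebf2 (26.4% of all genes were called lower and 24.4% higher). Without S7, 0 of the 7 were called (0.671% of all genes were higher and 0.935% lower), and the groups overlapped for all 7, with log2 differences from -0.01 to 0.23. The median over the 7 genes was -0.64 with S7 and 0.08 without, against -0.03 and 0.01 over all genes.

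With S7, Hmgcs1 went from 210.5 (PCL-S) and 212 (PCL-SE) normalised CPM on day 3 to 84.5 and 95.7 on day 7, a log2 fold change of -1.23 (edgeR adjusted p = 0.00157). Idi1 went from 60.2 and 61.4 to 24.2 and 32.8 (log2 fold change -1.09, adjusted p = 0.00378 by edgeR), and Sqle from 151 and 154 to 90.2 and 89.5 (-0.77, adjusted p = 0.00210). Their falls were called in all 8 fits that left out 1 library. Srebf2, the gene of the regulator itself, fell from 123 and 120.5 to 78.9 and 77.3 (log2 fold change -0.64, edgeR adjusted p = 0.0236). The log2 fold change of Srebf2 ran from -0.72 to -0.55 when 1 library was left out, and its call was lost without PCL-S day 3 (adjusted p = 0.0736), PCL-S day 7 (0.151), PCL-SE day 3 (0.149) or PCL-SE day 7 (0.0791), and under total-count scaling (-0.33, adjusted p = 0.123). Insig1 (-0.44, adjusted p = 0.0643), Fdft1 (-0.21, 0.213) and Lss (-0.17, 0.242) did not pass; under total-count scaling, which moved the median of all genes to 0.28 and the share of calls that were higher from 48.1 to 70.0%, Fdft1 (0.10) and Lss (0.14) changed sign.

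Without S7, the 2 arms differed in direction for most genes. In PCL-O all 7 genes were higher on day 7 than on day 3, by log2 ratios from 0.26 for Lss to 0.55 for Hmgcs1. In PCL-E all 7 ratios were below 0, from -0.04 for Sqle, which is inside its counting error of 0.06, to -0.38 for Insig1. The direction in PCL-E depended on the scaling for Sqle, which was 0.06 with library totals and with FPKM, and for Lss, which was -0.10 with TMM, 0.00 with library totals and 0.02 with FPKM. For the other 5 genes the PCL-E ratio was below 0 on each scale, and all 7 PCL-O ratios were above 0 on each. Each of these ratios compares 1 library with 1 library (normalised CPM with 2 added) and has no replicate check; counting error alone spans at most 0.12 on this scale.

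The change of the S7 difference between the days was tested as an interaction. It was called for Hmgcs1 (-1.46 ± 0.24, adjusted p = 0.00760), Sqle (-0.96 ± 0.17, adjusted p = 0.00816) and Idi1 (-1.18 ± 0.27, adjusted p = 0.0205), all by edgeR and all lower on day 7, where 15.5% of all genes were called lower. These 3 enzymes are the ones that fell with S7 on day 7, and the interaction uses the same libraries. For Srebf2 the interaction was -0.68 (adjusted p = 0.0900), for Insig1 -0.43 (0.217), for Fdft1 -0.27 (0.302) and for Lss -0.26 (0.266), so a difference between days was not called for these 4. The widest 95% half-interval among the 7 was 0.65. With total-count scaling the all-gene median moved from -0.03 to 0.21 and the share of calls that were higher from 46.0 to 68.0%, and it left the 3 calls in place. Idi1 lost its call in 5 of the 8 fits that left out 1 library, with the highest adjusted p, 0.103, without PCL-O day 3; the other 4 were without PCL-E day 3 (0.0571), PCL-S day 3 (0.0750), PCL-SE day 3 (0.0834) and PCL-S day 7 (0.0856). Sqle lost its call without PCL-SE day 3 (adjusted p = 0.0537), and all 7 genes were called without PCL-E day 7, when 19.4% of all genes were called lower.

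E7 gave no call for any of the 7 genes, nor for any other gene (0% of 15942). Over both days, the log2 differences of the 7 genes with E7 against without it ran from -0.15 to 0.06, with a 95% half-interval of at most 0.32. They ran from -0.27 to -0.07 for E7 without S7 and from -0.03 to 0.23 for E7 with S7, with half-intervals up to 0.44 and 0.45. These half-intervals are not adjusted for the number of genes, so larger E7 differences could also go uncalled. Counts of genes of all levels were also simulated, with each change placed equally on both days. Of 1.5-fold changes, 40.3% were recovered for E7 without S7 and 26.9% with S7. For 2-fold changes the shares were 67.2% and 61.2%. An E7 difference that changes between days counts as spread in this fit and was not simulated. The departure from additivity of the 2 peptides ran from 0.08 to 0.33 (half-interval at most 0.63). At an unadjusted p under 0.05 by edgeR there were 589 genes for E7 over both days, 1197 without S7, 179 with S7 and 614 for the departure, and DESeq2 called 1, 67, 1 and 14. With no difference in any gene, a share of 0.05 of the 15942 would be expected under the unadjusted threshold. Only the edgeR count for E7 without S7 lies above that share.

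A fit that averages E7 over days averages opposite directions. On day 3 all 7 genes were higher in PCL-E than in PCL-O, by log2 ratios from 0.11 for Fdft1 to 0.27 for Insig1, and on day 7 all 7 were lower, from -0.25 for Lss to -0.65 for Srebf2. Without PCL-O day 3 the comparison of E7 without S7 rests on day 7 alone, and 3 genes were then called lower: Srebf2 (-0.67, adjusted p = 0.0163), Hmgcs1 (-0.53, adjusted p = 0.0409) and Insig1 (-0.49, adjusted p = 0.0394), where 3.19% of all genes were called lower. Without PCL-E day 3 these 3 were called as well (adjusted p = 0.0194, 0.0460 and 0.0465), with 2.92% of all genes lower. In these 2 fits the lone libraries are assumed to vary like the other groups.

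The ratios to PCL-O share that 1 blank library on each day, and they are set side by side as descriptions. On day 7, PCL-S against PCL-O gave log2 ratios of -1.25 for Hmgcs1, -1.21 for Idi1, -0.67 for Srebf2, -0.61 for Sqle and -0.25 for Fdft1, with Insig1 at 0.00 and Lss at 0.03. PCL-SE against PCL-O gave -1.08, -0.81, -0.70, -0.62 and -0.32 for the same 5, with Insig1 at -0.01 and Lss at 0.17. With library totals in place of TMM, every day 7 ratio of PCL-S to PCL-O was higher. The values were -0.99 for Hmgcs1, -0.96 for Idi1, -0.40 for Srebf2, -0.35 for Sqle, 0.01 for Fdft1, 0.27 for Insig1 and 0.29 for Lss. The size of all 7 thus depends on the scaling, while Hmgcs1, Idi1, Srebf2 and Sqle stayed below 0 on both scales. Over 70 ratios between arms within a day, 27 moved beyond their counting error with library totals and 31 with FPKM. The arms with S7 were close to each other, and PCL-SE against PCL-S lay between -0.08 and 0.07 on day 3 for all 7. On day 7 the gene furthest apart between those 2 arms was Idi1, at 0.41. PCL-SE against PCL-E, which both hold E7, gave -0.56 for Hmgcs1, -0.37 for Idi1 and -0.32 for Sqle on day 7, but 0.46 for Insig1 and 0.41 for Lss, with the same signs under library totals.

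**Figure D4:**
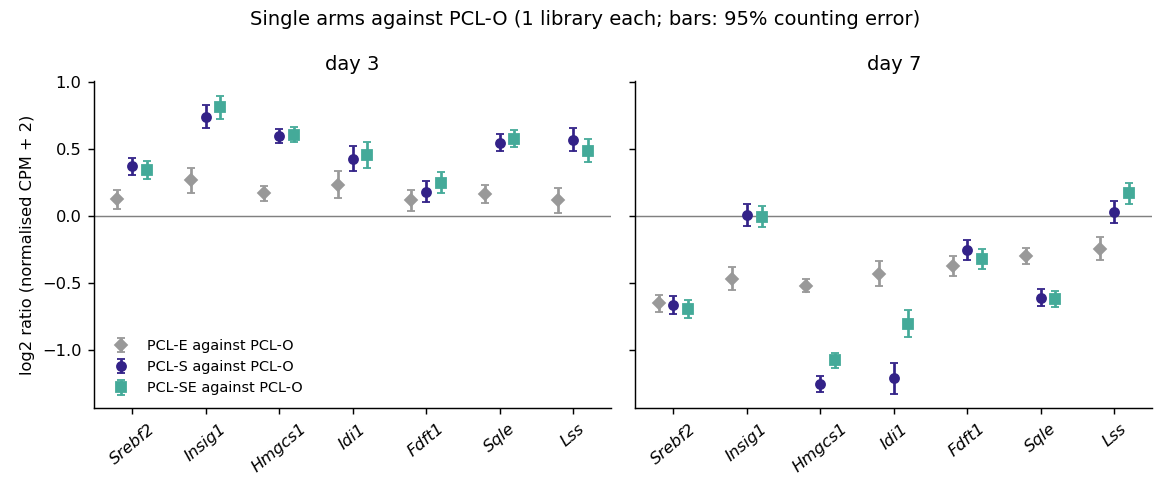
Log2 ratios (normalised CPM with 2 added) of PCL-E, PCL-S and PCL-SE to PCL-O on day 3 (left) and day 7 (right), 1 library each; bars are 95% counting error and all ratios of a day share the PCL-O library. On day 3 every ratio is above 0; on day 7 all 7 PCL-E ratios lie between -0.65 and -0.25, and the Hmgcs1 ratio is -1.25 in PCL-S.

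The other enzymes from acetyl-CoA to cholesterol showed both patterns. Of 21 enzymes listed, 20 were matched and tested, 15 of which are not among the 7 genes; Lbr was not matched. On day 3 the log2 difference with S7 was above 0 for all 20 enzymes, and 8 rose and 0 fell (all genes: 7.1% and 6.87%), with a median of 0.47 against 0.00 over all genes. Beside Sqle and Lss, those that rose included Tm7sf2 (0.96 ± 0.18, adjusted p = 0.0167), Dhcr7 (0.84 ± 0.13, 0.00989), Pmvk (0.54 ± 0.13, 0.0342), Ebp (0.50 ± 0.13, 0.0457) and Mvk (0.48 ± 0.13, 0.0488). Of these, Tm7sf2, Ebp and Dhcr7 act after lanosterol, and Mvk and Pmvk are the kinases of mevalonate.

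On day 7, 4 of the 20 enzymes rose with S7 and 6 fell, shares close to the 24.9% and 26.2% of all genes called higher and lower, and the median was -0.05 against -0.03 over all genes. Those that rose were Ebp (0.69 ± 0.13, adjusted p = 0.00439), Mvk (0.48 ± 0.12, 0.0172), Mvd (0.45 ± 0.15, 0.0398) and Pmvk (0.42 ± 0.13, 0.0291). Beside Hmgcs1, Idi1 and Sqle, those that fell included Cyp51, the demethylase of lanosterol (-0.46 ± 0.13, adjusted p = 0.0240), and Nsdhl (-0.41 ± 0.09, 0.00804). The fits that left out 1 library gave 0 to 13 enzymes higher on day 3, and 1 to 7 higher and 0 to 10 lower on day 7, with 1 higher and 0 lower without PCL-S day 7; total-count scaling gave 9 higher and 3 lower on day 7. Between days with S7, 9 enzymes fell and 0 rose (all genes: 26.4% lower), which total-count scaling turned into 7 lower and 2 higher. The interaction was called lower for 8 and higher for 0 (all genes: 15.5% lower), and for 2 (without PCL-SE day 3) to 12 (without PCL-E day 7) when 1 library was left out.

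**Figure D5:**
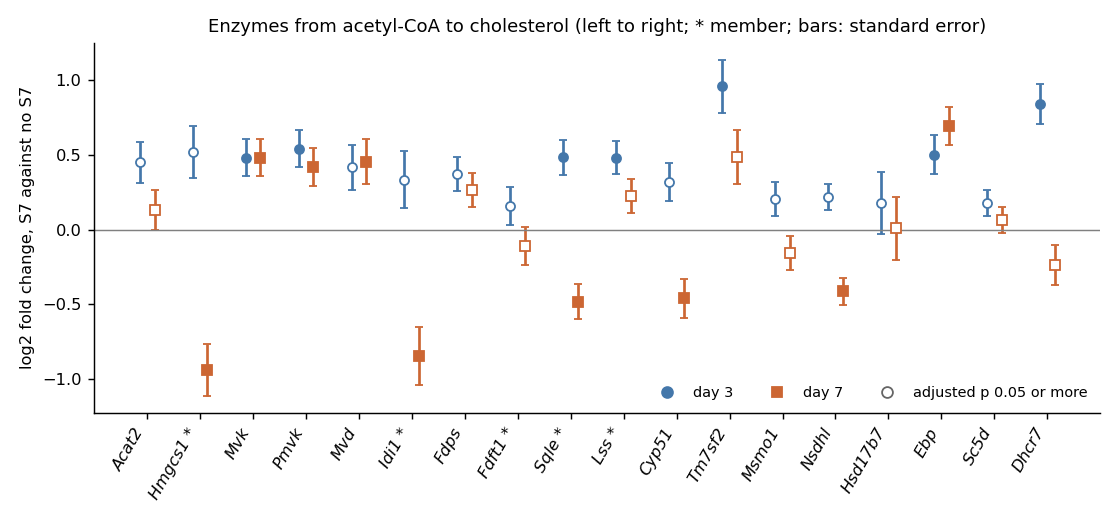
Log2 fold change with S7 against without S7 (vertical axis) for 18 of the 20 tested enzymes in pathway order from left to right on day 3 (circles) and day 7 (squares), from 2 libraries per side; bars are standard errors, open symbols have an adjusted p of 0.05 or more, and asterisks mark the 5 enzymes among the 7 genes. On day 3 all values are above 0; on day 7 Hmgcs1 (-0.94) and Idi1 (-0.84) are lowest and Ebp (0.69) is highest.

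Among 13 tested genes that process SREBP2 or sense sterols, Insig1 alone rose with S7 on day 3 and 0 fell, with a median of 0.09. On day 7, 1 rose and 3 fell: Rnf145, a ubiquitin ligase of the sterol-sensing complex (-1.31 ± 0.17, adjusted p = 0.00120), Mbtps1, the site-1 protease that first cuts SREBP (-0.29 ± 0.08, 0.0169), and Erlin2 (-0.27 ± 0.08, 0.0322). Over all genes, 7.1% were called higher and 6.87% lower on day 3, and 24.9% higher and 26.2% lower on day 7. The list's median on day 7 was -0.09, and total-count scaling gave 4 higher and 1 lower. Leaving out 1 library gave 0 to 4 higher on day 3 and 1 to 5 lower on day 7. Srebf1, the gene of the related SREBP1, did not pass on either day (0.36 ± 0.18 on day 3, adjusted p = 0.245; -0.10 ± 0.18 on day 7, adjusted p = 0.656).

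The cholesterol uptake and trafficking list was mixed. Among 11 tested genes, 2 rose and 1 fell on day 3 and 3 rose and 4 fell on day 7, with medians of 0.14 and -0.12. These counts stand against 7.1% higher and 6.87% lower of all genes on day 3, and 24.9% and 26.2% on day 7. Leaving out 1 library gave 0 to 4 higher on day 3, and total-count scaling gave 3 higher and 2 lower on day 7. Vldlr, the receptor for very-low-density lipoprotein, rose with S7 on day 3 (0.76 ± 0.11, adjusted p = 0.00801) and fell on day 7 (-1.84 ± 0.12, adjusted p = 0.000144). Scarb1, a receptor for high-density lipoprotein, rose on both days (0.81 ± 0.10 and 0.52 ± 0.10, adjusted p = 0.00441 and 0.00526).

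Genes of the LXR receptors, which respond to surplus sterols and drive efflux, gave 2 higher and 2 lower of 12 tested on day 3 and 5 higher and 3 lower on day 7, with medians of -0.17 and 0.35. Of all genes, 7.1% were higher and 6.87% lower on day 3, and 24.9% higher and 26.2% lower on day 7. Leaving out 1 library gave 0 to 2 higher and 1 to 3 lower on day 3, and 2 to 5 higher and 0 to 3 lower on day 7. Apoe, an apolipoprotein that accepts cholesterol, fell on day 3 (-2.21 ± 0.20, edgeR adjusted p = 0.00172), from 12.2 and 8.45 normalised CPM without S7 to 2.02 and 2.41 with it. On day 7 Nr1h3, the gene of LXR alpha, rose (1.91 ± 0.49, adjusted p = 0.0159), as did Cyp27a1, which makes an oxysterol (1.75 ± 0.37, adjusted p = 0.00745), whereas Abcg1, an efflux transporter, fell (-2.85 ± 0.90, adjusted p = 0.0359). All 3 were low. Nr1h3 stood at 0.381 (PCL-O) and 1.10 (PCL-E) normalised CPM, and at 2.90 (PCL-S) and 2.44 (PCL-SE). Cyp27a1 stood at 0.858 and 1.48 without S7 and at 4.28 and 3.74 with it. Abcg1 stood at 4.23 and 0.399 normalised CPM in PCL-O and PCL-E and at 0.449 and 0.0922 with S7, so the PCL-O library alone was high and the groups overlapped. Abca1, the other main efflux transporter, did not pass (0.53 ± 0.34, adjusted p = 0.243).

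The list of SREBP1 and fatty acid synthesis gave 4 of 12 higher and 0 lower on day 3 and 2 higher and 2 lower on day 7, with medians of 0.34 and -0.02. For this list and the isoprenoid branch below, the shares of all genes were 7.1% higher and 6.87% lower on day 3. On day 7 they were 24.9% higher and 26.2% lower. Leaving out 1 library gave 1 to 7 higher on day 3, and total-count scaling gave 5 higher and 1 lower on day 7, when 35.4% of all genes were called higher. The largest rises on day 3 were those of desaturases: Scd (2.30 ± 0.31, adjusted p = 0.00572), Fads1 (1.43 ± 0.14, 0.00226) and Fads2 (1.25 ± 0.26, 0.0245). Scd and Fads1 were higher on day 7 too (1.60 ± 0.30, adjusted p = 0.00447; 0.68 ± 0.14, adjusted p = 0.00697), and Acaca, acetyl-CoA carboxylase, fell (-0.78 ± 0.20, adjusted p = 0.0180). In the isoprenoid branch, which draws on the same pathway for prenyl groups, ubiquinone and dolichol, 0 of 12 were called on day 3 and 3 rose and 3 fell on day 7, with medians of 0.04 and 0.10; total-count scaling gave 5 higher and 2 lower on day 7. None of the 6 lists gave a call in any E7 comparison.

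Genes most like the members over the 8 libraries were found by Pearson correlation of log2(normalised CPM + 2) among 10220 genes with a mean of at least 5 CPM; the libraries share arms and days, and no p is given. Srebf2 was most like Fasn, fatty acid synthase (r = 0.990). Fasn stood at 394 normalised CPM in PCL-O on day 7 and at 184 to 197 in the other 3 arms of that day, an arrangement like that of Srebf2. The nearest genes were Atf2 for Idi1 (r = 0.993), Lmnb1 for Sqle (0.988), Krt7 for Lss (0.985), Fam13a for Insig1 (0.980) and Mllt6 for Fdft1 (0.957). The mean profile of the 7 genes was most like those of Edem1 (r = 0.978), Pappa1 (0.976), Pld1 (0.962), Fam102b (0.962) and H6pd (0.958). Edem1 stood at 147 (PCL-S) and 144 (PCL-SE) normalised CPM on day 3 and at 108 and 112 on day 7.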

How the data were processed

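Whole-number counts per gene and library were deposited by the authors in 1 table, together with FPKM values that the authors scaled per transcript length and library size, per the file headers. An aligner and a counting tool, not given in the sources used here, preceded them. The submitters' processing notes name mm10, whereas 22050 of 26873 features carry rat identifiers, 4823 are new genes and 0 carry mouse ones, so no gene coordinates were taken from the table. There were 10 lines of annotation text, which were dropped.

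Counts were filtered with filterByExpr, scaled with TMM and tested with edgeR 4.0.16 (R 4.3.3) by quasi-likelihood F-tests with Benjamini-Hochberg adjustment over all 15942 genes at 0.05. The terms of the first fit were S7, day, the interaction of both, and E7, with 3 residual degrees of freedom and a biological coefficient of variation of 0.137; E7 by S7 came from a second (2 residual degrees of freedom, 0.134). Errors of log2 fold changes are standard errors, and 95% intervals use the test's 6.80 or 6.05 total degrees of freedom. Pair ratios add 2 to normalised CPM. The procedure was tested on simulated counts. Alternatives were DESeq2 1.42.0, relative log expression size factors, total-count scaling, other low-count filters, no E7 term and leaving out each library. Depth was 32950326 to 41754124 counts per library, so 3 counts equal 0.0718 to 0.0910 CPM.

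Members, the 6 pathway lists and the marker lists were chosen with earlier results of these data known. Genes that could be named are the members, list genes, and the genes most alike over the 8 libraries; the choice of list genes printed was made with their values in view. Some genes of the lists and of this rule are not reported here. Tables used Python 3.11.15 with pandas 2.3.3 and scipy 1.17.1, figures matplotlib 3.10.9. Promoter sequences are RefSeq's for the mouse (GRCm38.p6).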

Additional observations from a re-analysis of the deposited data

Results flagged for a closer look

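The difference between libraries with and without S7 changed between day 3 and day 7, by edgeR's test of the interaction, for 3 of the 7 genes: Hmgcs1 (log2 -1.46 ± 0.24, adjusted p = 0.00760), Sqle (-0.96 ± 0.17, 0.00816) and Idi1 (-1.18 ± 0.27, 0.0205). Of all genes, 15.5% were called lower and 13.2% higher by this test, so a call is common. Idi1 kept its call in only 3 of the 8 fits that left out 1 library. Among the other named genes of the lists, those called by the same test included the sterol enzymes Cyp51 (-0.78), Nsdhl (-0.63) and Dhcr7 (-1.07), with adjusted p from 0.00857 to 0.0218. Also called were Stard4, a sterol carrier (-1.19), Vldlr (-2.60) and Rnf145 (-1.33), and the fatty acid genes Fads1 (-0.74), Fads2 (-1.53) and Acaca (-1.14). Apoe (2.46) and Cyp27a1 (2.28) changed in the other direction.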

How the results depend on the processing

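No paired analysis was possible because each arm and day has 1 library, so no groups share 2 replicate numbers. Leaving out 1 library gave 257 to 3847 genes called for S7 on day 3 (2227 with all libraries), 5003 to 8327 for S7 on day 7 (8137), 4479 to 9206 for day 7 against day 3 with S7 (8090), 0 to 1347 without S7 (256) and 1538 to 6219 for the interaction (4578). For E7 the ranges were 0 to 867 without S7, 0 to 1 with S7 and 0 to 248 for the departure from additivity. Of the 7 genes, 0 to 5 were called for S7 on day 3, 0 to 5 for S7 on day 7, 0 to 1 for day 7 against day 3 without S7, 1 to 7 for the interaction and 0 to 3 for E7 without S7. DESeq2 called 827 genes for day 7 against day 3 without S7, 1 for E7 over both days, 67 for E7 without S7, 1 for E7 with S7 and 14 for the departure, and omitting the low-count filter gave 2 for E7 without S7. Under settings that kept all libraries, 333 values of the 7 genes kept direction and side of the threshold, 2 lost a call, 5 gained one and 10 uncalled ones changed sign; with 1 library left out, 381 kept both, 32 lost a call, 23 gained one and 68 uncalled ones changed sign. Without single libraries, Srebf1 with S7 on day 7 ran from -0.43 to 0.27, being called higher without PCL-O day 7 and lower without PCL-E day 7. The fits with all libraries rest on 2 to 3 residual degrees of freedom and no repeated cultures, which limits precision more than depth does. Those without 1 library rest on fewer. In the fits of E7 by S7, the side (with or without S7) that lost a library is then fitted exactly. Calls gained for E7 on that side measure no spread there.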
